A study of Rattus norvegicus with 12 samples.

Results

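Spmip7, Slc22a4, C3h15orf48, Cftr, Vgf, Evi2b and Plcd4 are 7 genes read here on arrays of rat L6 myotubes. Each had a probe with low or no control signal and a strong signal after treatment with GR24, a synthetic strigolactone analog. They were chosen by exactly these values, the control and the GR24 signals, out of 16581 genes named on the array, of which 10741 had a tested probe. The rule set no numeric limit, so there is no gene just inside or just outside it, and the difference between control and GR24 is given for these genes as a description without a test.

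L6 is a line of rat skeletal muscle cells whose myoblasts fuse into myotubes in culture. Differentiated myotubes received DMSO alone (control), or 60 µM of GR24, pinosylvin or resveratrol in DMSO, for 24 h, and their RNA was measured on Agilent arrays of 1 colour. Each of the 4 groups has 3 arrays, 1 for each of 3 independent experiments with cells of the same batch, which makes 12 arrays. Differentiation lasted 6 days by the sample labels and 7 days by the paper. Pinosylvin and resveratrol are both plant stilbenes, and resveratrol carries a further hydroxyl group.

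Most genes that serve sperm, nerve, epithelium or blood are kept nearly silent in skeletal muscle, where their promoters lack the factors that drive them in their own tissue. Exposure to reactive or foreign compounds is known to engage broadly expressed factors such as Nrf2, AP-1, CREB and the Ahr, which can act on promoters in many cell types. Spmip7 belongs to sperm, Cftr to epithelia, Vgf to neurons and endocrine cells and Evi2b to blood cells, while Slc22a4, C3h15orf48 and Plcd4 are active in several tissues.

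Signal is given below as relative signal, the background-subtracted signal of a probe as a percentage of the 75th percentile over the probes of its array. The scanner software marks each spot that lies well above background, and a probe counts here as detected on an array where at least 50% of its spots carry the mark. Between 49.6% and 56.8% of the probes were detected on each array. The number of arrays limits the precision of all values. The 7 genes had 11 probes, of which 8 were tested, that is, detected on every array of at least 1 group. The probes of Spmip7 and Cftr and the Plcd4 probe A_44_P1085368 passed this filter through the GR24 arrays alone, so these had to differ between groups. Slc22a4, C3h15orf48 and Evi2b passed through the GR24 and the resveratrol arrays. The Plcd4 probe A_42_P656837 passed through all groups other than the control, and Vgf passed through every group.

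The remaining 3 probes showed no signal in any group. A_44_P1154970 for Slc22a4 had a relative signal of 0.516% to 1.23% over the 12 arrays. A_64_P103542 for Cftr ranged from 0.572% to 0.997%. A_44_P1116685 for Vgf ranged from 0.519% to 1.46%. None of these was detected on any array, GR24 included, so the values of Slc22a4, Cftr and Vgf each come from 1 probe of 2, and where in the transcripts the probes bind was not examined.

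On GR24 arrays all 8 tested probes were detected 3 times in 3, and no GR24 value overlapped a control value, which the choice of the genes fixes. Over all 24279 tested probes, 31.5% were higher and 25.5% lower with GR24 than in the control (limma, adjusted p under 0.05), with a median log2 difference of 0.027. Fitted log2 differences of the 8 probes ran from 3.39 to 5.90. Where no control array detected a probe, a fold is given as at least a stated size, computed by raising each control signal that lay under the dimmest marked spot of its array to that spot. This dimmest spot stood at a relative signal of 2.73%, 3.90% and 2.62% on control replicates 1, 2 and 3. Such a bound holds only for this background correction, and the fitted fold is no bound. With another correction, normexp, the differences of these genes were smaller than their bounds, and those of the 8 probes ran from 0.78 to 2.40.

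**Figure D1:**
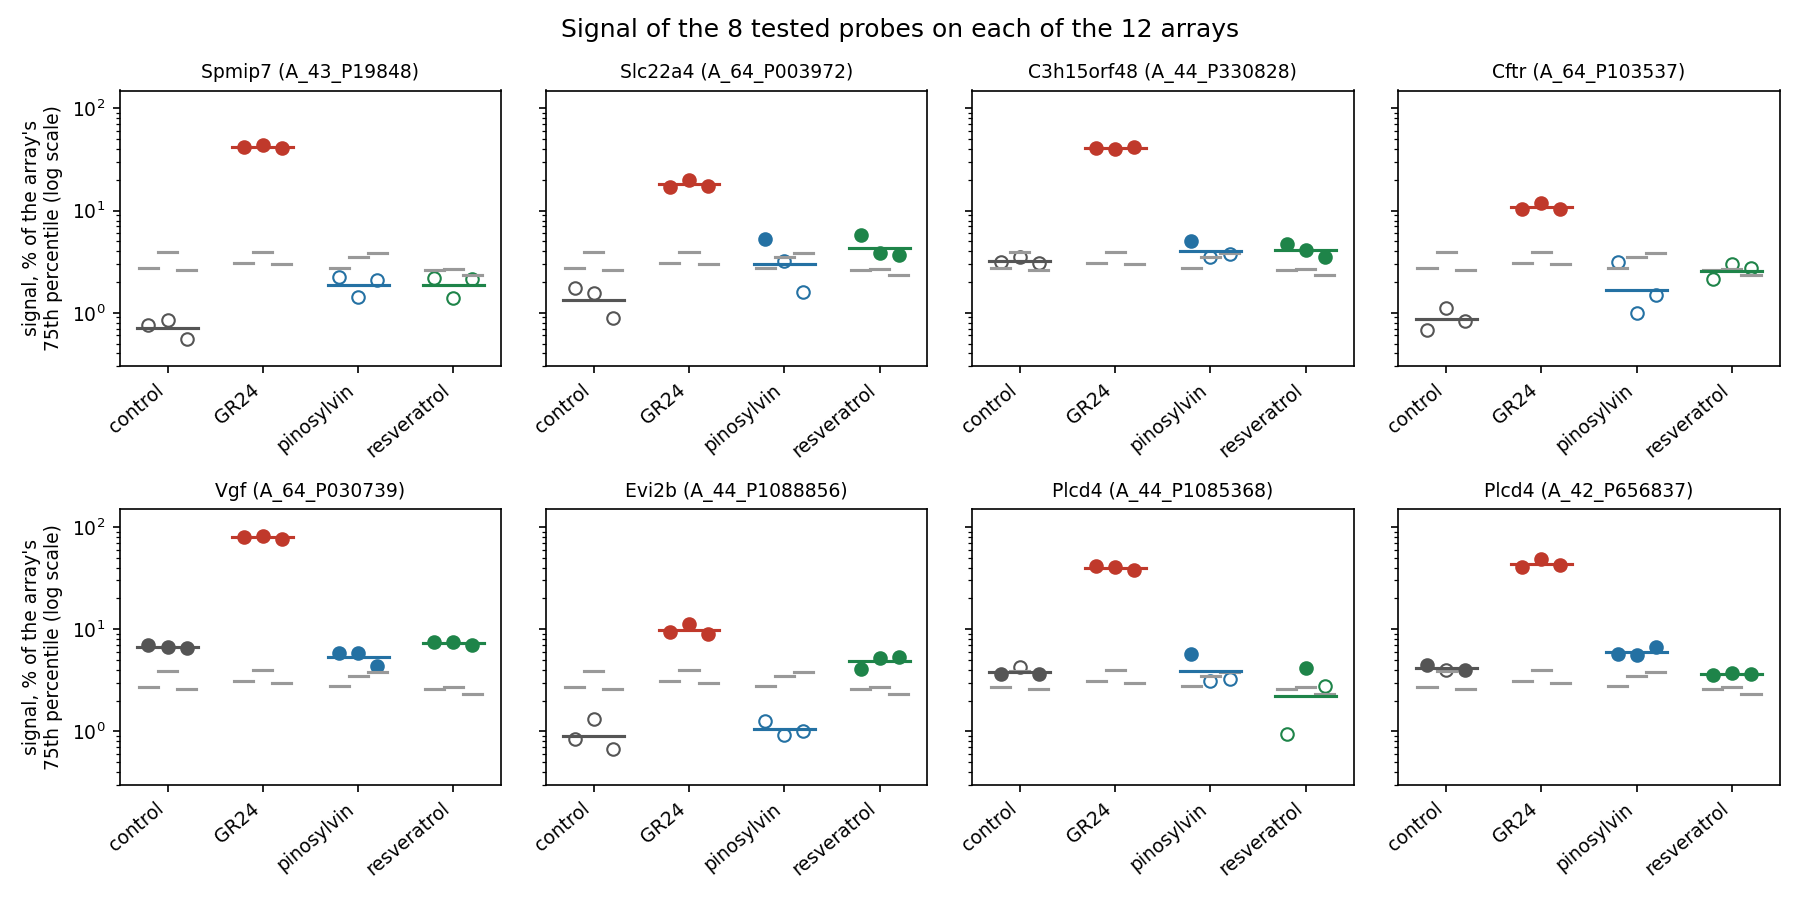
Relative signal (% of the array's 75th percentile, log axis) of the 8 tested probes on the 12 arrays by group, with filled points where the probe was detected, open points where it was not, grey ticks at the dimmest marked spot of each array and a line at the group mean of the log2 values. Spmip7 stood at 40.6% to 44.4% on the GR24 arrays and at 0.555% to 0.842% on the control arrays, and Vgf was detected in every group.

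Spmip7 encodes a protein that lines the inside of the doublet microtubules of the sperm tail. Its relative signal was 0.764%, 0.842% and 0.555% on control replicates 1, 2 and 3. On GR24 replicates 1, 2 and 3 it was 42.1%, 44.4% and 40.6%, a mean of 42.4% ± 1.90 (SD, n = 3). The gene was detected on the GR24 arrays and on no control, pinosylvin or resveratrol array. Over the control this is a difference of at least 14.0-fold, and the fitted log2 difference was 5.90 (SE 0.220). Pinosylvin arrays gave 2.24%, 1.44% and 2.07%. Resveratrol arrays gave 2.20%, 1.40% and 2.14%. All 9 values outside GR24 lay under the dimmest marked spot of their arrays, so no order is given among control, pinosylvin and resveratrol.

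C3h15orf48 is the rat counterpart of human C15orf48, a small mitochondrial protein that can take the place of Ndufa4 in cytochrome oxidase, and its gene also carries the microRNA miR-147. Its relative signal was 3.13%, 3.55% and 3.04% on the control arrays. On the GR24 arrays it was 41.2%, 39.7% and 42.0%, a mean of 41.0% ± 1.18 (SD, n = 3). Control signals sat at the limit of detection, 1 under and 2 just over the dimmest marked spot of their arrays, so that the bound of at least 12.3-fold lies close to the fitted log2 difference of 3.66 (SE 0.141). Pinosylvin arrays gave 5.01%, 3.52% and 3.75%, detected on replicate 1. Resveratrol arrays gave 4.75%, 4.09% and 3.55%, detected on all 3. Control, pinosylvin and resveratrol values overlapped, with means within a log2 of 0.34 of each other, and the GR24 values stood apart from the 3 groups.

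Slc22a4 (OCTN1) carries organic cations and the antioxidant ergothioneine across the cell membrane. Its tested probe gave 1.74%, 1.56% and 0.892% on the control arrays. With GR24 it gave 17.1%, 19.9% and 17.6%, a mean of 18.2% ± 1.49 (SD, n = 3). No control array detected it, and its signal with GR24 was at least 5.99-fold higher, with a fitted log2 difference of 3.76 (SE 0.391). Resveratrol arrays gave 5.76%, 3.89% and 3.65%. All 3 of these were detected and lay above every control value, at least 1.43-fold higher than the control, with a fitted log2 difference of 1.69 (SE 0.391). Pinosylvin arrays gave 5.28%, 3.23% and 1.61%, detected on replicate 1. These pinosylvin values spread from within the control range to within the resveratrol range, and with no detection in the control no order is given between pinosylvin and control.

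Cftr is the chloride and bicarbonate channel of epithelial cells whose loss causes cystic fibrosis. Its tested probe gave 0.682%, 1.12% and 0.838% on the control arrays. With GR24 it gave 10.4%, 11.8% and 10.3%, a mean of 10.8% ± 0.812 (SD, n = 3). As with Spmip7, it was detected on the GR24 arrays and on none of the other 9. Its signal was at least 3.56-fold higher than in the control, with a fitted log2 difference of 3.65 (SE 0.349). Pinosylvin arrays gave 3.16%, 1.00% and 1.49%. Resveratrol arrays gave 2.16%, 2.99% and 2.72%. Without detection in these groups no order is given among them.

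Vgf is a secreted neuropeptide precursor of neurons and endocrine cells, first found as a gene that nerve growth factor induces. Its tested probe is printed in 10 spots on each array and was detected on all 12 arrays, so near-silent is a loose name for it here. Control arrays gave 6.97%, 6.74% and 6.52%. GR24 arrays gave 79.7%, 82.3% and 75.5%, a mean of 79.2% ± 3.46 (SD, n = 3), an 11.7-fold difference (log2 3.55, SE 0.105). With the control detected throughout, this fold is a plain ratio of signals and no bound. Pinosylvin arrays gave 5.82%, 5.86% and 4.38%, and on replicate 3 only 5 of the 10 spots carried the mark. Resveratrol arrays gave 7.54%, 7.44% and 7.02%. The groups did not overlap, with GR24 the highest and pinosylvin the lowest. The share of all tested probes whose groups separate in this way was not counted. Resveratrol and control were apart by a log2 of 0.12 (SE 0.105), of the size of the standard error, so no order is given between them. Under normexp with the 75th percentile resveratrol minus control was 0.011. Pinosylvin minus control was then -0.088, beside -0.35.

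Plcd4 is a phospholipase C that splits the membrane lipid PIP2 into the messengers IP3 and diacylglycerol, and it takes part in the acrosome reaction of sperm. It had 2 tested probes, and each was detected on control replicates 1 and 3, so for this gene too the control is dim and not silent. Probe A_42_P656837 gave 4.46%, 3.97% and 3.99% on the control arrays. On the GR24 arrays it gave 40.3%, 48.2% and 42.8%, a mean of 43.8% ± 4.07 (SD, n = 3), with a fitted log2 difference of 3.40 (SE 0.0929). Probe A_44_P1085368 gave 3.62%, 4.27% and 3.62% on the control arrays and 41.1%, 40.6% and 38.3% on the GR24 arrays, a log2 difference of 3.39 (SE 0.447). The probes therefore gave nearly equal differences with GR24. With pinosylvin A_42_P656837 gave 5.66%, 5.60% and 6.69%. With resveratrol it gave 3.56%, 3.73% and 3.62%. Its groups did not overlap, with GR24 and then pinosylvin above the others, and here too the share of all tested probes was not counted. Resveratrol minus control was -0.19, but 0.011 with normexp and quantile normalization and 0.021 in the deposited table, so no order is given between them. A_44_P1085368 gave 5.77%, 3.13% and 3.28% with pinosylvin. It gave 0.935%, 4.18% and 2.75% with resveratrol. On this probe both compounds overlapped the control, and the value of resveratrol replicate 1 lay far under the others.

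Evi2b is a membrane glycoprotein of blood cells, and its gene lies inside an intron of the tumour suppressor gene Nf1. Its probe gave 0.835%, 1.31% and 0.673% on the control arrays. With GR24 it gave 9.42%, 11.2% and 9.02%, a mean of 9.87% ± 1.14 (SD, n = 3). That is at least 3.24-fold over the control, with a fitted log2 difference of 3.45 (SE 0.225). Resveratrol arrays gave 4.07%, 5.20% and 5.38%, all detected. Pinosylvin arrays gave 1.27%, 0.924% and 1.01%, none detected. With resveratrol the gene was thus detectable, at least 1.60-fold over the control, and the order was GR24, then resveratrol, with pinosylvin and control under detection. Between GR24 and resveratrol, both detected, the fitted log2 difference was 1.02 (SE 0.225).

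The question of whether the 2 stilbenes differ in their effect on these genes can be tested, because the rule used neither of their groups. The adjusted p was under 0.05 for 3 of the 8 probes, those of Evi2b and Vgf and 1 of the 2 for Plcd4. The tested probes of Spmip7 and Cftr were detected on no stilbene array, so their values say nothing about a difference in expression. Over all 24279 tested probes, 7.68% were higher and 6.85% lower with pinosylvin than with resveratrol, with a median log2 difference of 0.022. With the replicate number as a block in the fit, which pairs the arrays with the same number, these shares were 14.4% and 11.6%. Both groups also differ from the control they share, with 8.28% of tested probes higher and 8.27% lower for pinosylvin (16.3% and 12.3% with the block) and 7.99% higher and 8.99% lower for resveratrol (14.1% and 13.8% with the block). Of 15 muscle markers, 9 were higher and 0 lower with pinosylvin than with resveratrol, with a median of 0.40, and 7 were lower with resveratrol than in the control, with a median of -0.32. With no filter on dim probes 4 were lower, and without control replicate 2 also 4. The part of muscle content in the differences between the stilbenes was not tested.

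Evi2b was lower with pinosylvin than with resveratrol by a log2 difference of -2.19 (95% interval -2.69 to -1.69, limma adjusted p = 0.000162). The fit is unpaired. Paired by replicate number, which the labels do not state, Evi2b was lower in 3 of 3 pairs of arrays. No pinosylvin array detected the gene, so the fitted size is no bound, and with normexp it shrank to -0.34 (adjusted p = 0.0165). Vgf was lower by -0.47 (95% interval -0.70 to -0.23, adjusted p = 0.0148), again in 3 of 3 such pairs. The call for Vgf was lost under normexp (-0.10, adjusted p = 0.462, and -0.22, adjusted p = 0.0605, after quantile normalization), with no filter on dim probes (adjusted p = 0.0533), in a fit of the 6 stilbene arrays alone (adjusted p = 0.0730) and without resveratrol replicate 2 (adjusted p = 0.0522). Plcd4 probe A_42_P656837 was higher by 0.71 (95% interval 0.51 to 0.92, adjusted p = 0.000716), higher in 3 of 3 such pairs. Under normexp with quantile normalization it was 0.21 (adjusted p = 0.0567), and the other Plcd4 probe gave 0.82 with an interval from -0.17 to 1.81 (adjusted p = 0.268).

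For the other genes no difference between the stilbenes passed the threshold, which does not show that the compounds act alike on them. Spmip7 gave 0.0058, with an interval from -0.48 to 0.50 (adjusted p = 0.993). C3h15orf48 gave -0.018, with an interval from -0.33 to 0.29 (adjusted p = 0.960). Spmip7 was detected on none of the 6 stilbene arrays and C3h15orf48 on 4, so these intervals describe signal near background and set no limit to a difference in expression. Slc22a4 gave -0.53, with an interval from -1.39 to 0.34 (adjusted p = 0.434). Cftr gave -0.63, with an interval from -1.40 to 0.14 (adjusted p = 0.276), and without pinosylvin replicate 1, the highest of its group, the difference was -1.09 (adjusted p = 0.0188). Cftr was detected in neither stilbene group. With normexp and the 75th percentile the sign turned in both genes, to 0.006 (adjusted p = 0.981) for Slc22a4 and 0.032 (adjusted p = 0.910) for Cftr, while with normexp and quantile normalization it stayed, at -0.12 (adjusted p = 0.568) and -0.11 (adjusted p = 0.503).

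**Figure D2:**
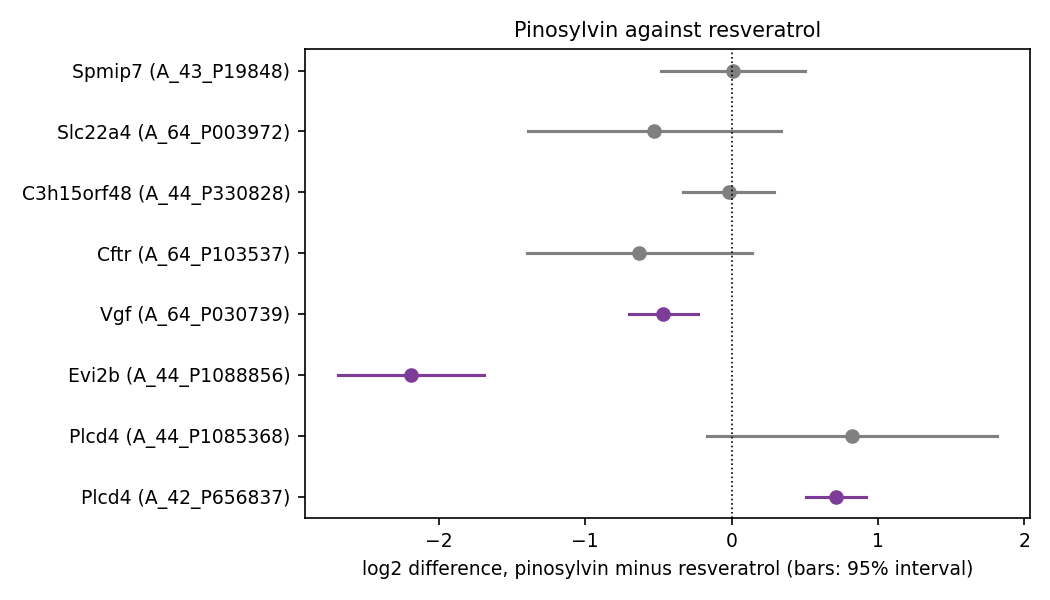
Fitted log2 difference, pinosylvin minus resveratrol, of the 8 tested probes with its 95% interval, from 3 arrays per group, in purple where the adjusted p was under 0.05 and in grey elsewhere. The intervals of Evi2b, Vgf and Plcd4 probe A_42_P656837 lie off 0, and that of Plcd4 probe A_44_P1085368 is the widest, from -0.17 to 1.81.

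Against the control, the stilbene differences of these genes are a description, since the control arrays chose the genes. The 3 comparisons with the control share its arrays. Evi2b had a fitted difference of 2.43 (SE 0.225) with resveratrol, no bound because the control was not detected, and 0.32 with normexp. For Evi2b with pinosylvin and for Cftr and Spmip7 with both stilbenes no size is given, since neither the control nor the stilbene group was detected. Vgf had -0.35 with pinosylvin, and Plcd4 probe A_42_P656837 had 0.53 with pinosylvin and -0.19 with resveratrol (SE 0.0929 each). Every GR24 value lay above every stilbene value of the same probe, which the choice of the genes by a strong GR24 signal favours. The share of all tested probes that separate in this way was not counted.

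Detection offers a wider view of the same step from dark to bright. In the control, 18666 probes were detected on no array, and 174 of these, for 79 named genes, were detected on all 3 GR24 arrays. These include 5 of the 7 genes, with Vgf and Plcd4 outside because of their control signal. The reverse step, from all control arrays to no GR24 array, was made by 374 probes of 178 named genes. The step from no control array to every resveratrol array was made by probes of 39 named genes, with Slc22a4, C3h15orf48 and Evi2b among them. For pinosylvin the step was made by probes of 8 named genes and none of the 7. Of the 174 probes, 65, for 28 named genes, were detected on no stilbene array, with those of Spmip7 and Cftr among them, and another probe of such a gene may have been detected.

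Ordered by their bound, Spmip7 and C3h15orf48 stood 1st and 2nd among the 79 genes, Slc22a4 4th, Cftr 10th and Evi2b 13th. The control and GR24 signals that chose these genes also make up the bound, so high places follow from the choice. The order is that of this floor, and the bounds move with another floor, as given at the end. Tgfa, a growth factor that activates the EGF receptor, stood between C3h15orf48 and Slc22a4, at least 11.0-fold higher with GR24. Next came the stress cytokine Gdf15 (at least 4.35-fold), the kinase anchor Akap14 (4.33-fold), the anchoring collagen Col7a1 (4.25-fold), the axonemal gene Cimap2 (4.20-fold) and the cytotoxic granule protease Gzmb (4.07-fold). Tgfa was also detected on all pinosylvin and all resveratrol arrays, Gdf15 on all resveratrol arrays and Gzmb on all pinosylvin arrays, unlike Spmip7 and Cftr.

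The genes whose log2 values ran most like those of the 7 were sought among 10730 other named genes over the 12 arrays. Since the 3 GR24 arrays stand apart for all of the 7, r is high for many genes with a clear GR24 difference, and it is given as a description. Spmip7 and Cftr were detected on no array outside GR24. Beyond the GR24 difference that chose them, their r rests on signal under detection, and the order of their nearest genes is not interpreted. Spmip7 ran closest to the metallothionein Mt2A (Pearson r = 0.995), followed by the glycosyltransferase Alg11 (0.992) and the ribonuclease P subunit Rpp14 (0.990). Mt2A differed from the control by 4.21 with GR24 and by 1.20 with resveratrol, from a control in which it was detected. Evi2b ran closest to the quinone reductase Nqo1 (r = 0.984), the growth factor Kitlg (0.983) and Prr7 (0.980). Nqo1 differed from the control by 3.00 with GR24 and by 2.08 with resveratrol. After the group means were taken out, r with Nqo1 was 0.151, so the likeness lay between groups and hardly within them.

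C3h15orf48 ran closest to the kinase Uhmk1 (r = 0.995) and Zbtb7b (0.993). Among the closest to Slc22a4 were the mitochondrial ribosomal protein Mrpl46 (0.988) and Nudt8 (0.986). With group means taken out, r was 0.904 for Mrpl46 and 0.862 for Nudt8, and among the genes named for the other 6 it ran from -0.195 (Upp1) to 0.752 (Zbtb7b). Slc22a4 was detected on no control array and on pinosylvin replicate 1 alone of its group, so its r rests in part on signal under detection. Arrays with the same replicate number are taken to share an experiment, and its part in these values was not tested. Cftr ran closest to the epithelial keratin Krt8 (0.973), Ankrd24 (0.967) and Vps53 (0.967). As for Spmip7, this order rests on signal under detection and is not interpreted. Vgf ran closest to the phosphatase Dusp19 (0.996), Tlcd1 (0.996) and the ferredoxin reductase Fdxr (0.995). The Plcd4 probes had different nearest genes, Noc3l (0.964), Jmjd7 (0.961) and Ifi30 (0.961) for A_44_P1085368 and Tmf1 (0.991), Arnt (0.989) and Upp1 (0.989) for A_42_P656837. Upp1 is also the nearest tested gene on the left of Spmip7.

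The nearest tested gene on each side of each of the 7 was read from the gene order of the GRCr8 assembly. Of these 14 flanking genes, 9 were higher and 2 lower with GR24 than in the control, with a median log2 difference of 0.41, beside 31.5% and 25.5% of all tested probes and their median of 0.027. Upp1, a uridine phosphorylase left of Spmip7 with 12 untested genes between, rose by 2.15 (SE 0.0966, adjusted p = 2.86e-08). On the right side of Spmip7, the DNA repair gene Fignl1 fell by 1.56 (SE 0.170, adjusted p = 2.05e-05). Spmip7 overlaps the sperm gene Zpbp, which had no tested probe.

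Evi2b and its neighbour Evi2a lie in the same intron of Nf1. Evi2a, a membrane protein gene next to Evi2b, rose by 2.08 with GR24 (SE 0.0864, adjusted p = 1.59e-08) and by 0.35 with resveratrol (adjusted p = 0.0185). The resveratrol call was lost without filter (adjusted p = 0.0685), on slide 1 alone (0.24, adjusted p = 0.105), with the 6 arrays alone (adjusted p = 0.0686) and without control replicate 3, resveratrol replicate 2 or resveratrol replicate 3 (adjusted p 0.0511 to 0.0686). Its difference with pinosylvin was 0.11 (adjusted p = 0.479), and its difference between pinosylvin and resveratrol was -0.25 (adjusted p = 0.0871), past the threshold in neither. The host gene Nf1 rose by 0.31 with GR24 (SE 0.107, adjusted p = 0.0305), a call that was lost without filter (adjusted p = 0.0819), on slide 1 alone (adjusted p = 0.124) and without any single control or GR24 array (adjusted p 0.0569 to 0.0763). Wsb1, on the left of Evi2b, had -0.10 (adjusted p = 0.365). The list of Nf1 and the genes of its introns thus had 2 tested genes besides Evi2b, both higher with GR24 apart from the fits that lost Nf1, and its other gene, Omg, was not tested.

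Beside Slc22a4, the sister transporter Slc22a5 (OCTN2), which carries carnitine, was detected on all 12 arrays and had 0.16 (SE 0.190, adjusted p = 0.517). On its right side Pdlim4, a cytoskeletal adaptor, fell by 1.74 (SE 0.0849, adjusted p = 5.06e-08). Beside C3h15orf48, the ribosome factor Afg2b rose by 1.03 (SE 0.115, adjusted p = 2.39e-05). Slc30a4, a zinc transporter on its other side, rose by 0.45 (adjusted p = 0.0396), a call lost under normexp (0.41, adjusted p = 0.0511), without filter (adjusted p = 0.0913) and with the 6 arrays alone (adjusted p = 0.0600), and without control replicate 1, without control replicate 2, without GR24 replicate 1 or without GR24 replicate 2 (adjusted p 0.0587 to 0.151). Mir147, within C3h15orf48, was on no probe. Beside Vgf, the adaptor Ap1s1 rose by 0.60 and the acyltransferase Mogat3 by 0.67. Beside Plcd4, the deadenylase subunit Cnot9 rose by 0.37, a call lost without GR24 replicate 2 (0.30, adjusted p = 0.0556), and the mitochondrial chaperone Bcs1l by 0.82, while the zinc finger gene Zfp142, which overlaps Plcd4, rose by 0.96. Beside Cftr, ST7 rose by 0.25 and the RNA-binding Lsm8 had 0.041 (adjusted p = 0.797).

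**Figure D3:**
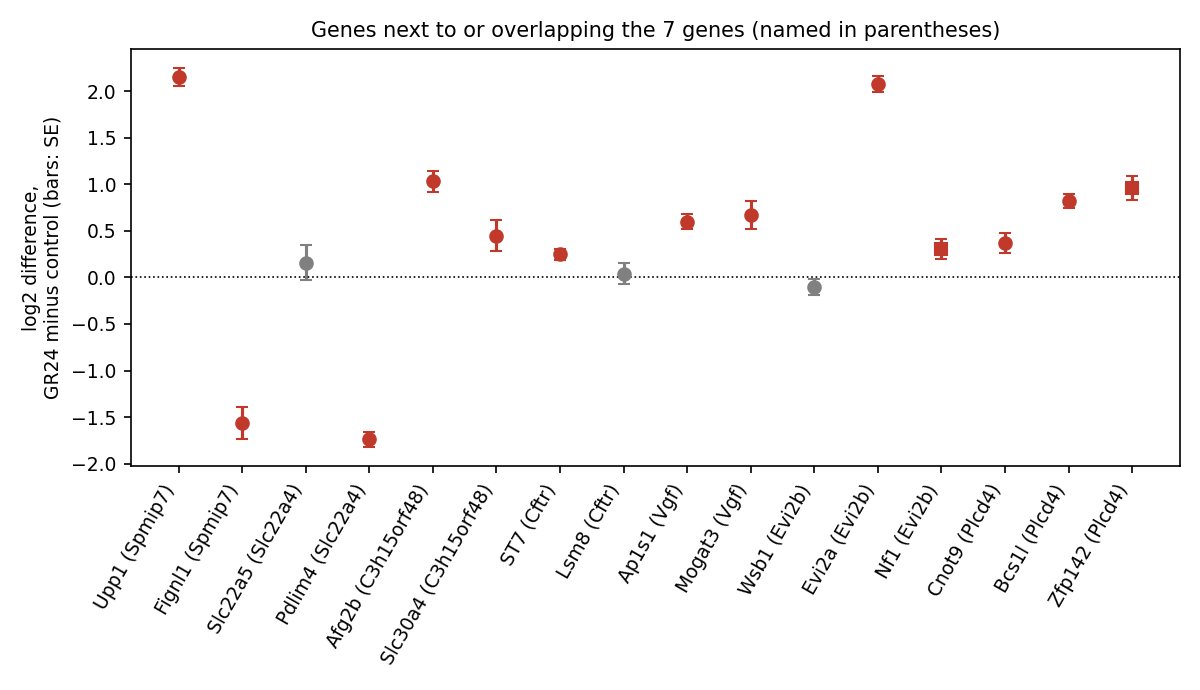
Fitted log2 difference, GR24 minus control, of the nearest tested gene on each side of the 7 genes (circles, with the gene of the 7 in parentheses) and of 2 tested genes that overlap them (squares), with the standard error, from 3 arrays per group, in red where the adjusted p was under 0.05 and in grey elsewhere. Evi2a (2.08) and Upp1 (2.15) have the largest differences of the 14 flanking genes, and Pdlim4 (-1.74) and Fignl1 (-1.56) the lowest.

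Relatives and partners of the 7 genes were read from 8 lists with 97 tested genes. With GR24, 36 of them were higher (37.1%) and 29 lower (29.9%), with a median of 0.034, close to the background of 31.5%, 25.5% and 0.027. With pinosylvin 9 were higher (9.28%) and 10 lower (10.3%) than the control, beside 8.28% and 8.27% of all tested probes, and 18 were higher with the replicate block. With resveratrol 14 were higher (14.4%) and 10 lower (10.3%), beside 7.99% and 8.99%, and 9 were higher with no filter and without control replicate 1, resveratrol replicate 1 or resveratrol replicate 2. Between pinosylvin and resveratrol 6 were higher (6.19%) and 9 lower (9.28%), beside 7.68% and 6.85%, and with the replicate block 12 were higher. The list shares count only the brightest tested probe of each gene, while the background counts all tested probes, with or without a gene name. The same holds for the flanking genes above.

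The microtubule inner proteins, relatives of Spmip7 that stiffen the doublets of cilia and sperm tails, had 16 tested genes of 34 on the array. With GR24 3 were higher and 8 lower, with a median of -0.30, or -0.10 over 15 genes when genes undetected in a group are set to their bound. Among probes detected on all 12 arrays 3 were lower. Cfap52 had the largest difference of the list and fell by 3.37 (SE 0.344, adjusted p = 1.26e-05). Enkur, detected on all control arrays and on no GR24 array, was at least 3.48-fold lower. Among the higher genes were Cfap141 (0.90), Ribc1 (0.86) and Nme7 (0.50), chosen for mention after their values were seen. The cytochrome oxidase subunits, the setting of C3h15orf48, had 13 tested genes, 0 higher and 6 lower with GR24, with a median of -0.34, and 1 or 2 were higher in fits with quantile normalization or the deposited table. Cox8a fell by 0.79 (SE 0.0617, adjusted p = 1.69e-06) and the muscle form Cox6a2 by 0.76 (SE 0.0958, adjusted p = 6.00e-05). Ndufa4, whose place C15orf48 can take, had -0.06 (SE 0.0755, adjusted p = 0.543).

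Among the organic cation and carnitine transporters 6 were tested, with 2 higher and 2 lower with GR24 and a median of -0.029. Only 1 was lower with quantile normalization, with no filter, with the 6 arrays alone, with the percentile over spots and without any of 7 single arrays. Slc22a23 rose by 0.84 with GR24 (SE 0.0984, adjusted p = 3.56e-05), by 0.76 with pinosylvin and by 0.78 with resveratrol. Slc22a17 fell by 0.54 with GR24 (SE 0.103, adjusted p = 0.00103). The chloride channels and partners of Cftr had 20 tested genes, of which 10 were higher and 4 lower, with a median of 0.29. With no filter 6 were higher, and without GR24 replicate 1 also 6. Clcn5, an endosomal chloride and proton exchanger, fell by 2.14 (SE 0.0826, adjusted p = 9.80e-09), and the epithelial sodium channel subunit Scnn1a rose by 0.97 (SE 0.132, adjusted p = 0.000102). Clcn5 also differed between the stilbenes, by 1.07 (adjusted p = 3.66e-05), higher with pinosylvin.

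The granins and the enzymes that process neuropeptides, the company of Vgf in secretory granules, had 8 tested genes, 0 higher and 3 lower with GR24, with a median of -0.21. Scg5 fell by 0.87 (SE 0.113, adjusted p = 7.25e-05) and the amidating enzyme Pam by 0.60 (SE 0.0707, adjusted p = 3.65e-05). The processing enzyme Cpe was the other one, at -0.21 (adjusted p = 0.0270), a call lost under 8 alternatives (adjusted p 0.0871 to 0.276) and without control replicate 2, control replicate 3, GR24 replicate 1 or GR24 replicate 3 (adjusted p 0.0541 to 0.0934). Vgf was thus bright while no tested gene of this list rose. Phospholipase C and IP3 signalling, around Plcd4, had 13 tested genes, 6 higher and 5 lower, with a median of 0.087. Plcb4 fell by 1.68 (SE 0.0975, adjusted p = 1.83e-07), and the diacylglycerol-responsive kinase Prkcd rose by 1.14 (SE 0.0879, adjusted p = 1.54e-06). The nearest relatives of Plcd4, Plcd1 and Plcd3, rose by 0.51 and 0.50.

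The factors that bind the motifs searched below had 19 tested genes, 13 higher and 1 lower with GR24, with a median of 0.62. Maff, a small partner of Nrf2, rose by 1.81 (SE 0.0780, adjusted p = 2.07e-08), and Fosl1, an AP-1 subunit, rose by 1.56 (SE 0.0817, adjusted p = 8.28e-08). Maff also rose with resveratrol, by 0.55 (adjusted p = 0.000953), and had 0.25 with pinosylvin (adjusted p = 0.0578, and 0.0380 with the replicate block). The lower gene was Jun, which fell by 0.70 (SE 0.0617, adjusted p = 4.38e-06). Nfe2l2, which encodes Nrf2, rose by 0.59 (adjusted p = 0.00123).

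Since the 7 genes are known from other tissues, markers of those tissues were read on the same arrays. In bulk RNA fewer cells of a type and less RNA per cell cannot be told apart. All 15 muscle markers on the array were detected in the control, with Myl11 the brightest, and 13 were detected with GR24. Of the 15, 12 were lower and 0 higher with GR24, with a median of -1.89, or -1.04 with bounds, and their summed relative signal was 153450% to 173839% in the control and 75738% to 80175% with GR24. It was 165861% to 178338% with pinosylvin and 134667% to 147207% with resveratrol. Myog, which drives fusion of myoblasts, fell by 5.83 with GR24 (SE 0.145, adjusted p = 5.53e-10), and the muscle actin Acta1 fell by 3.88 (SE 0.0777, adjusted p = 2.40e-10). The GR24 arrays on which the 7 genes were bright were thus also those with the dimmest muscle markers, and the part of this loss in the result was not tested.

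Of the 12 leukocyte markers, beside Evi2b, 6 to 8 were detected on each array, and Ptprc and Spi1 were detected on none. Their summed relative signal was 459% to 590% in the control, 552% to 596% with GR24, 385% to 495% with pinosylvin and 472% to 565% with resveratrol. Cd48 was the brightest on every array apart from GR24 replicates 1 and 2, where Coro1a was. Of 6 tested, Cd68 rose by 2.67 (SE 0.172, adjusted p = 4.11e-07) and Coro1a by 1.28 (SE 0.114, adjusted p = 4.53e-06), while Cd48 fell by 0.65 (SE 0.141, adjusted p = 0.00248). Laptm5, Csf1r and Tyrobp, the other 3, did not pass, and with the replicate block Tyrobp did (0.22, adjusted p = 0.439 without and 0.0416 with the block). All 6 tested markers were detected on all 12 arrays, and the part of the leukocyte markers in the result was not tested.

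Of the 12 neuron and endocrine markers, beside Vgf, 3 or 4 were detected per array and 8 on none, Syt1, Snap25, Syp, Stmn2, Nefl, Ina, Scn2a and Rbfox3. The brightest was Uchl1, which rose by 1.43 with GR24 (SE 0.0874, adjusted p = 2.66e-07) and carried the summed relative signal from 1170% to 1293% in the control up to 2892% to 3460%. The sum was 1034% to 1182% with pinosylvin and 1418% to 1568% with resveratrol. The other 2 tested genes fell, Gap43 by 2.03 (SE 0.0984, adjusted p = 4.88e-08) and Tubb3 by 0.86 (SE 0.0932, adjusted p = 2.03e-05). Vgf was thus bright where synaptic genes such as Syp and Snap25 were not detected. The part of these markers in the result was not tested.

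Of the 12 epithelial markers, beside Cftr, 3 to 5 were detected per array, and 7 on none, Epcam and Cdh1 included. Krt8 rose by 1.08 with GR24 (SE 0.0902, adjusted p = 2.86e-06) and was the brightest on GR24 replicates 1 and 2, with Cldn3 the brightest on the other arrays, and the other 3 tested genes, Cldn3, Esrp1 and Elf3, did not pass. Their sum was 83.2% to 119% in the control, 110% to 170% with GR24, 105% to 131% with pinosylvin and 87.8% to 115% with resveratrol. Of the 12 male germ cell markers, beside Spmip7, 2 to 4 were detected per array, and 6 on none, Ddx4, Sycp1, Sycp3, Tnp1, Tnp2 and Akap4. Ldhc, the lactate dehydrogenase of sperm, went from no control array to all GR24 arrays, at least 1.69-fold higher. Prm2 went the other way, detected on 2 arrays each of control, pinosylvin and resveratrol and on no GR24 array. Dazl was detected on 1 control array and on no other. Odf1, the brightest in all groups, rose by 0.62 (SE 0.0935, adjusted p = 0.000206), and Prm1 had 0.31 (adjusted p = 0.196). The mean log2 value of Odf1 was -2.22 with resveratrol and -2.48 with GR24. The sum was 32.9% to 39.1% in the control, 42.2% to 48.4% with GR24, 38.8% to 42.7% with pinosylvin and 40.4% to 43.8% with resveratrol. For Cftr and Spmip7 too, the part of these markers was not tested.

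Promoter windows from RefSeq, with 250 bases before and 50 bases after the start of transcription on GRCr8, were found for all 7 genes, 11 windows in all because Spmip7 has 4 and C3h15orf48 has 2. Both strands were searched for 7 motifs, and shares refer to all 33469 rat windows of that length. The antioxidant response core TGACNNNGC, bound by Nrf2, stood in 1 window each of Spmip7, Slc22a4, Vgf and Evi2b and in 12.1% of all windows. The AP-1 motif TGANTCA stood in none of the 11 and in 7.33% of all, and the CRE motif TGACGTCA stood in the Vgf window and in 1.83% of all. The Ahr core GCGTG stood in windows of Slc22a4, C3h15orf48, Cftr and Vgf and in 29.7% of all. The GC box GGGCGG stood in those of Slc22a4, Cftr and Vgf (33.1% of all), the TATA box TATAAA in those of Vgf and Evi2b (14.2%) and CCAAT in those of Spmip7, Cftr, Vgf and Evi2b (37.5%). The Plcd4 window held none of the 7 motifs. A match describes the letters and is no proof of binding, and a missing match says only that these letters are not in the window.

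The 4 windows with TGACNNNGC are shown because of this match. The windows of C3h15orf48, Cftr and Plcd4, genes bright on the same GR24 arrays, lack it and are not shown. Capitals mark all matches to the 7 motifs on either strand. The Spmip7 window lies at chr14:90267634-90267933 on the + strand, that of Slc22a4 at chr10:38679871-38680170 on the - strand, that of Vgf at chr12:25276971-25277270 on the - strand and that of Evi2b at chr10:64972228-64972527 on the - strand. In the Slc22a4 window a GCGTG match directly abuts the TGACNNNGC match, both on the strand opposite to the one printed. In Vgf and in Evi2b a pair of TATAAA matches on opposite strands overlap as TTTATAAA.
Spmip7: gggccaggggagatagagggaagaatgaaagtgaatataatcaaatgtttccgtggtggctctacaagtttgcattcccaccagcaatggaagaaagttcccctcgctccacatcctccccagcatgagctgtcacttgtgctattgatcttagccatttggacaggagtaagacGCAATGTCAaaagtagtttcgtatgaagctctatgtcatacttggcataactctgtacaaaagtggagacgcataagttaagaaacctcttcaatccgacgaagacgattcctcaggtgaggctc
Slc22a4: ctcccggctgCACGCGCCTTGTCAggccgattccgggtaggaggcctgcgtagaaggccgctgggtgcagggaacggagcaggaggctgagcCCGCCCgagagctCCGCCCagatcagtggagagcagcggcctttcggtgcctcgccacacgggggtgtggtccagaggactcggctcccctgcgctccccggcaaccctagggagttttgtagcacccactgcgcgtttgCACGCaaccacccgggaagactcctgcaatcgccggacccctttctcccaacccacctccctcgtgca
Vgf: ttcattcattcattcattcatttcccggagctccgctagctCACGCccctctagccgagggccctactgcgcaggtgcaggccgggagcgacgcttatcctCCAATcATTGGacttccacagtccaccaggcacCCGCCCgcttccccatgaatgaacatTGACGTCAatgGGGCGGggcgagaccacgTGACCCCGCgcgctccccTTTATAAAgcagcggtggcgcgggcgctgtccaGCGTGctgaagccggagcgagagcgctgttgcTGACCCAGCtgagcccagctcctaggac
Evi2b: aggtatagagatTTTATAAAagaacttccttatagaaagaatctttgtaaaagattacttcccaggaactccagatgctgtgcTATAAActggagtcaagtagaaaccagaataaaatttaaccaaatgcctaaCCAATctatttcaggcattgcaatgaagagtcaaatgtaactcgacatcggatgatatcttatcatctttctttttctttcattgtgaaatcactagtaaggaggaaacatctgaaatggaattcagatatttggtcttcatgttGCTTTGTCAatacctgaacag

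The Vgf window is the richest of these, with the CRE 90 bases before the start, TGACCCCGC 61 bases before it and the TATA pair between this and the start. The Evi2b window has a GC content of 33.7%, against a median of 51.7% over all windows, and that of Slc22a4 has 67.7%. C3h15orf48 hosts miR-147, whose mature sequence in RefSeq lies at chr3:130176322-130176343 on the + strand. It is shown because the arrays, which measured the host transcript, held no probe for it, and capitals mark its seed, bases 2 to 8.
rno-miR-147: gUGUGCGGaaaugcuucugcua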

How the data were processed

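RNA of 12 cultures of L6 myotubes, 3 per group, was measured on 1-colour Agilent arrays. The authors deposited scanner output (Agilent Feature Extraction 12.0.0.7), whose processed signal is an intensity from which the software had taken the background of the array, not normalized between arrays. It could be positive for a spot under its local background. For Cftr probe A_64_P103537, control replicate 1 had a spot median of 37.0, a local background of 54.5 and a processed signal of 6.63. Values under detection are thus no measured amounts. A table of log2 values for the series was deposited too, which the authors had normalized with limma by a method not stated, used here as an alternative. The members and the gene lists were chosen with earlier results of these data known.

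From the processed signal, spots marked as outliers were left out (10 of the spots of the 7 genes over all arrays). The log2 values of the spots of a probe were averaged, and the 75th percentile over the averaged probes of the array was subtracted. limma 3.58.1 in R 4.3.3 fitted a mean per group to all 12 arrays, with eBayes and Benjamini-Hochberg adjustment over 24279 tested probes at 0.05. The model was tested on simulated data. The percentile over averaged probes, the rule that 50% of the spots of a probe suffice and the dimmest spot behind the bounds were settled after values had been seen.

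RefSeq accessions were matched to a table of the GRCr8 assembly, which named 21109 of 45598 probes (46.3%). Named genes are the 7, the 2 past-threshold genes of each list with the largest GR24 differences, the 3 genes most like each of the 7, its nearest tested neighbours, the 10 genes with the largest bounds and any gene needed to account for a list of 5 or fewer. Some further genes, such as Ndufa4, Plcd1, Plcd3, Jun, Nfe2l2, Cpe, Cfap141, Ribc1 and Nme7, were named after their values were seen. Some genes named by this rule are left out of the report. A gene outside the 7 was represented by its brightest tested probe. Replicates with the same number are taken to come from 1 of 3 independent experiments, which the labels do not state. In values with group means removed, arrays with the same number correlated at 0.191 to 0.744 (18 pairs) and other pairs at -0.663 to 0.475 (36 pairs), so the replicate number was tried as a block. This contrast follows the slide. Within slide 1, pairs with the same number had 0.191 to 0.47 and other pairs 0.222 to 0.475, and all pairs from different slides had -0.663 to -0.324. Slide 1 holds replicates 1 and 2 of all groups and slide 2 replicate 3. Alternatives were normexp (offset 50), quantile normalization, the deposited table, other filters, percentiles and probe summaries, slide or replicate as a block, slide 1 alone, fewer arrays, outlier spots kept, and trend and robust settings.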

Additional observations from a re-analysis of the deposited data

How the results depend on the processing

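Values near background depend most on the background correction. The GR24 differences of the 8 probes were 0.78 to 2.40 with normexp and 1.53 to 3.46 in the deposited table, beside 3.39 to 5.90. With a floor from probe averages, chosen after seeing the data, the bounds were 21.3 (Spmip7), 12.7 (C3h15orf48), 9.12 (Slc22a4), 5.42 (Cftr) and 4.93 (Evi2b). The normexp alternatives used the median signal of a spot, since the files hold no mean signal. Counts of probes and of pooled related genes with GR24 were within 1.5 times under all alternatives run (6800 to 9753 probes higher, 5358 to 7375 lower). Counts of single lists moved further, as given in the report, and among probes detected on all 12 arrays 1 flanking gene was lower and 1 male germ cell marker higher. The percentile over spots moved the median GR24 difference of all probes from 0.027 to 0.13 and no filter to 0.12. This median was 0.11 with quantile normalization, 0.083 in the deposited table and 0.077 with normexp and quantile. It was 0.053 among probes detected on all 12 arrays and 0.0095 with normexp and the 75th percentile. For pinosylvin minus resveratrol, differences that did not pass changed sign: with normexp and the 75th percentile Slc22a4 gave 0.006 (beside -0.53), C3h15orf48 0.084 and Cftr 0.032 (beside -0.63), and Spmip7 gave -0.019 with normexp and quantile, -0.12 with quantile normalization and -0.043 in the deposited table, with and without the slide block. With the percentile over spots, chosen after seeing the data, C3h15orf48 gave 0.0019. Plcd4 probe A_42_P656837, resveratrol minus control, gave 0.011 with normexp and quantile and 0.021 in the deposited table, with and without the slide block. Of the 8 probes, 1 passed with normexp and quantile and 1 among probes detected on all 12 arrays, where fewer of them are tested. Below, counts are probes unless related genes are named. Without filter, 1026 were higher with pinosylvin than in the control, 1070 with resveratrol (9 related genes), and 1072 were higher and 903 lower (4 related genes) with pinosylvin than with resveratrol. With the slide as a block these were 4031 higher (21 related genes) and 3043 lower with pinosylvin, 3524 and 3345 with resveratrol, and 3564 higher (13 related genes) and 2879 lower between them. With the replicate block they were 3954 higher (18 related genes) with pinosylvin, 3419 higher and 3350 lower with resveratrol, and 3507 higher (12 related genes) and 2816 lower between them. The block ended 0 calls among 140 list and flanking genes and added 8 for GR24, 21 for pinosylvin, 14 for resveratrol and 15 between the stilbenes, and no call of the 7 genes changed. With only the 6 arrays compared, 1083 were higher with pinosylvin and 1215 with resveratrol. The deposited table with the slide block, added after seeing the data, gave 3469 higher (16 related genes) with pinosylvin, 3547 higher with resveratrol and 2920 lower (17 related genes) between them. With the percentile over spots 14 related genes were higher with pinosylvin and 11 between the stilbenes. Leaving out 1 array at a time gave 1236 to 2048 higher with pinosylvin, 1192 to 2063 higher with resveratrol (9 to 15 related genes), and 1086 to 1988 higher and 1030 to 1711 lower between the stilbenes. The arrays whose omission moved a count by over 1.5 times were control replicate 1 (9 related genes), pinosylvin replicate 1 (1250 and 1224), pinosylvin replicate 2 (1236, 1086 and 1062), resveratrol replicate 1 (1192 and 9 related genes), resveratrol replicate 2 (1285, 1207, 1030 and 9 related genes) and resveratrol replicate 3 (1104). Of the 8 probes, 2 to 4 passed. Spmip7 ranged from -0.21 to 0.20 and C3h15orf48 from -0.17 to 0.088. The cause of these shifts was not tested.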
